A study of Mus musculus with 10 samples.

Results

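The genes described here control blood clotting and the removal of clots at the surface of glomerular cells: Plat, Plau, Plaur, Serpine2, Thbd, Procr, F3, Tfpi and Vwf. They are the members by name, and every probe set that the platform annotation assigns to exactly 1 of them was taken. That gave 13 of 45037 probe sets, for 8 of the 9 genes. Serpine2 encodes a serpin that inhibits thrombin and plasminogen activators. No probe set is listed for that gene alone, and it was not analysed here. None of the 13 probe sets passed the test between genotypes after adjustment over the whole array (limma, smallest adjusted p = 0.263), and the 4 probe sets of Tfpi did not share a direction.

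Glomeruli were isolated on beads perfused through the heart from 5 mice heterozygous for the R394W knock-in allele of Wt1 (Wt1 +/R394W, called mutants) and from 5 wild-type littermates (Wt1 +/+). All 10 were unweaned males aged 27 days from backcross generation 4 to FVB/N, and each gave 1 array. In the kidney Wt1 is active in podocytes, where its zinc finger protein controls transcription, and the mutation models Denys-Drash syndrome, a human glomerular disease. The mutants had little albumin in the urine and no lesions of the mesangium in the light microscope. The allele is carried in every cell, and after few backcross generations the chromosome around Wt1 may still come from the donor strain in the mutants, so that linked sequence and the allele cannot be told apart. The question is which transcripts differ at this early stage.

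Clotting starts when tissue factor, the product of F3, meets factor VII of the plasma. Tissue factor pathway inhibitor (Tfpi) blocks that step. On endothelium, thrombomodulin (Thbd) binds thrombin and the endothelial protein C receptor (Procr) presents protein C to it, which shuts the cascade down, while von Willebrand factor (Vwf) tethers platelets. Tissue-type (Plat) and urokinase-type (Plau) plasminogen activators make plasmin, which dissolves fibrin, and Plaur encodes the receptor that holds urokinase at the cell surface.

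Values are log2 expression (RMA). Differences are on that scale, mutants minus wild types, with the standard error (SE) of each, and every genotype has n = 5 mice. Array medians lay between 6.32 and 6.40, correlations between arrays between 0.985 and 0.997, and no array was a copy of another. Wt1 itself read 11.63 ± 0.16 (SD, n = 5) in mutants and 11.30 ± 0.17 (SD, n = 5) in wild types (limma, adjusted p = 0.244), and since the allele changes an amino acid, the level of its transcript does not check the labels. The tissue label was borne out by high readings of the podocyte genes Podxl (14.40 in mutants and 14.41 in wild types) and Nphs1 (12.89 in mutants and 12.97 in wild types) and of the glomerular endothelial gene Ehd3 (13.81 in mutants and 13.88 in wild types). Tubule carry-over varied between mice: the mean of 20 tubule markers, from here on the tubule score, ran from 6.80 to 9.32 in mutants and from 6.52 to 8.61 in wild types, with mutant 5 and wild type 5 lowest.

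Of the 13 member probe sets, 0 passed an adjusted p under 0.05 in limma, where 0.853% of all probe sets did (0.391% higher and 0.462% lower in mutants). At an unadjusted p under 0.05 there were 4, 1 of Plaur and 3 of Tfpi, where 9.36% of all probe sets lay. The genotypes overlapped in all 13, and were separate in 2.78% of all probe sets. With each gene read by its brightest probe set, 7 of the 8 differences were negative and 1 was positive, with a median of -0.11 beside 0.00 over 18193 genes. This count depends on the probe set read: with all probe sets of a gene averaged, Plau (0.12) and Tfpi (0.09) turned positive. The median size of the 8 differences by brightest probe set was 0.11, beside 0.07 over all genes. Over the 13 probe sets, 4 of them of Tfpi, it was 0.22, beside 0.07 over all probe sets. In bulk glomeruli, fewer cells of a type and less RNA per cell cannot be told apart.

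**Figure D1:**
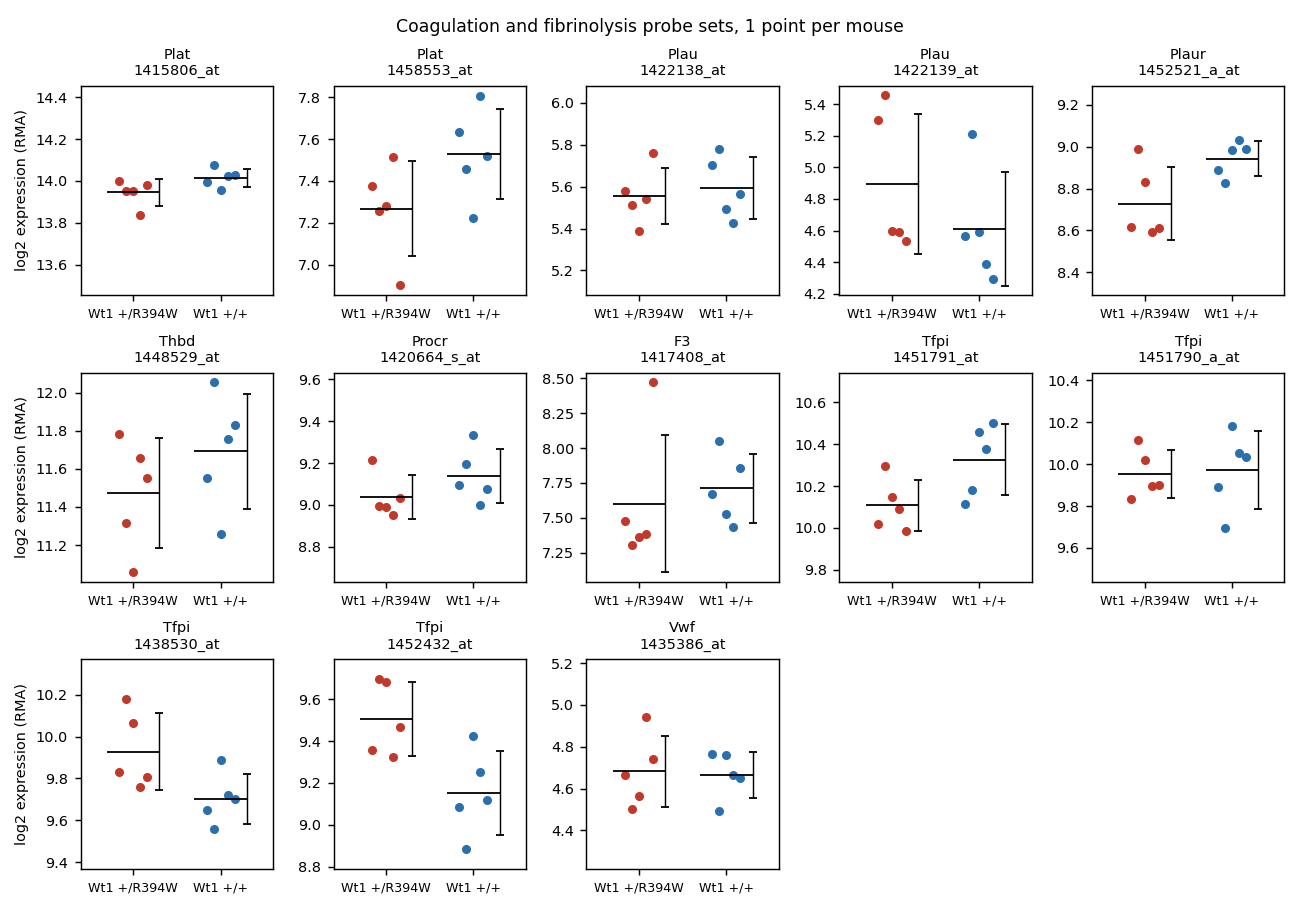
Log2 expression of each of the 13 probe sets (vertical axes, each panel at least 1 log2 unit high) in 5 mutant mice on the left and 5 wild-type mice on the right. Each point is a mouse, the line is the mean and the bar its SD; the genotypes overlap in every panel, and mutant 5 stands alone at 8.47 for F3.

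F3, the trigger of clotting, was read at a modest signal in both genotypes, and 1 mutant stood apart. Its probe set (1417408_at, chromosome 3) read 7.47, 7.31, 7.37, 7.38 and 8.47 in mutants 1 to 5, against 7.67, 8.05, 7.53, 7.44 and 7.86 in wild types 1 to 5. Mutants 2, 3 and 4 lay below every wild type, while mutant 5 lay above every wild type. The difference was -0.11 ± 0.21 (SE, limma adjusted p = 0.916), with a 95% interval from -0.58 to 0.36, and without mutant 5 it was -0.33 (adjusted p = 0.448). Leaving out any 1 other mouse gave from -0.18 (without wild type 4) to -0.025 (without wild type 2). Mutant 5 also had the lowest tubule score of its genotype. With that score as a covariate the difference was 0.00 (adjusted p = 0.998). Over all 10 mice, F3 and the tubule score had a Pearson r of -0.77 (permutation p = 0.0154) and a Spearman rho of -0.58 (permutation p = 0.0893). Adjusted over the 39 relations computed between 13 probe sets and 3 marker scores (tubule, endothelial and immediate early), these gave p = 0.600 and p = 0.916 by permutation. Without mutant 5 and wild type 5, the mice farthest from the median score, r was -0.59, and with genotype means removed it was -0.76, each genotype alone being too small for a value. The next smallest adjusted p among the Pearson values was 0.863 by permutation. The immediate early score, a sign of tissue handling, ran from 8.57 to 9.46 in mutants and from 8.78 to 9.40 in wild types.

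Tfpi, the inhibitor of that step, has 4 probe sets on the array, and they disagreed about the genotypes. The brightest, 1451791_at, read 10.02, 10.29, 10.15, 10.09 and 9.98 in mutants 1 to 5, against 10.11, 10.18, 10.46, 10.38 and 10.50 in wild types 1 to 5. Wild types 1 and 2 lay inside the range of the mutants and the other 3 above it, and the difference was -0.22 ± 0.09 (SE, limma adjusted p = 0.480). In the other direction, 1452432_at read 9.36, 9.70, 9.68, 9.33 and 9.47 in mutants 1 to 5, against 9.08, 8.88, 9.42, 9.25 and 9.12 in wild types 1 to 5. Only wild type 3 reached into the range of the mutants here, and the difference of 0.35 ± 0.11 (SE, limma adjusted p = 0.263) was the largest among the members. 1438530_at differed by 0.23 ± 0.09 (SE, adjusted p = 0.482), from 9.76 to 10.18 in mutants and from 9.56 to 9.89 in wild types. 1451790_a_at differed by -0.02 ± 0.09 (SE, adjusted p = 0.973), from 9.83 to 10.12 in mutants and from 9.69 to 10.18 in wild types. The mean of the 4 probe sets differed by 0.09 (adjusted p = 0.800 in a separate limma fit of gene means over 18193 genes). The sign for the gene as a whole thus depended on the probe set read.

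**Figure D2:**
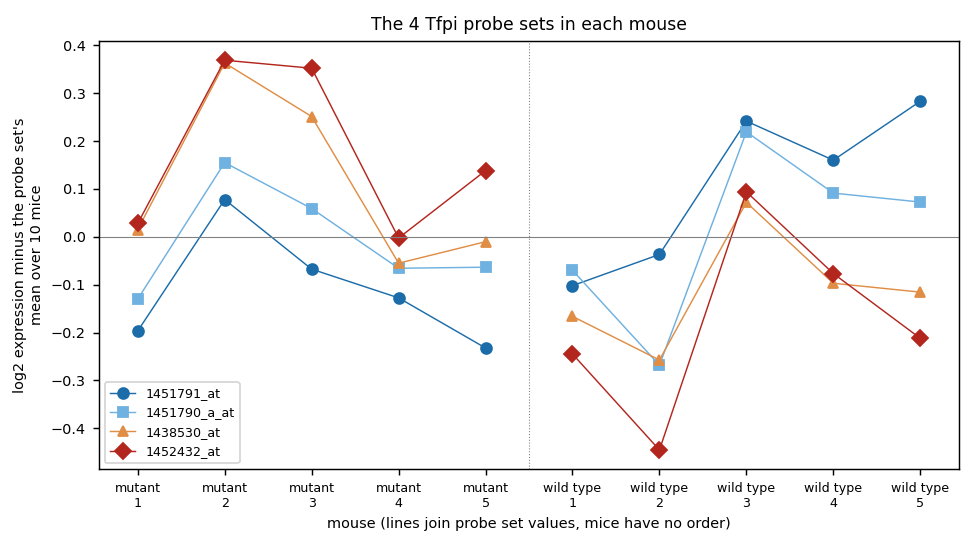
Each of the 4 Tfpi probe sets in each mouse, as log2 expression minus that probe set's mean over the 10 mice (vertical axis), mutants on the left and wild types on the right. In all 5 mutants 1452432_at lies above 1451791_at, and in all 5 wild types below it.

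Taking 1 probe set from another within each array removes what the probe sets share in a mouse, and the genotypes then came apart. The log2 ratio of 1452432_at to 1451791_at was -0.66, -0.60, -0.47, -0.76 and -0.52 in mutants 1 to 5, against -1.03, -1.30, -1.04, -1.12 and -1.38 in wild types 1 to 5. Its level has no meaning between probes, but no mutant overlapped a wild type, and the genotypes differed by 0.57 ± 0.09 (SE, limma, 95% interval 0.38 to 0.77). The ratio of 1452432_at to 1451790_a_at ran from -0.57 to -0.34 in mutants and from -0.92 to -0.76 in wild types, a difference of 0.37 ± 0.06 (SE). The ratio of 1438530_at to 1451791_at ran from -0.33 to -0.08 in mutants and from -0.80 to -0.46 in wild types, a difference of 0.44 ± 0.07 (SE). Of the 6 ratios among the 4 probe sets, 4 did not overlap, where 1.36% of all ratios did not.

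These ratios were examined because the probe sets were seen to disagree, so they were also set among all others. A limma fit over 13976 pairs of probe sets of the same gene, all with means above the median of the array (5192 genes), called 0.0429% of the pairs at an adjusted p under 0.05. The 6 Tfpi pairs stayed short of that, with adjusted p = 0.0772, 0.0772 and 0.104 for the 3 ratios above and at least 0.449 for the rest, while 5 of the 6 had an unadjusted p under 0.05, where 6.09% of all pairs did. The 6 pairs share 4 probe sets and are not independent of each other. The clearest Tfpi pair ranked 7 by p among the 13976, and Tfpi ranked 6 among the genes. It passed when pairs of any signal were included (adjusted p = 0.0397, 30372 pairs) and after quantile normalization of the values (0.0497), while its difference was 0.56 with adjusted p = 0.558 when the endothelial score was in the fit. With 1 mouse left out, the smallest adjusted p of any Tfpi pair ran from 0.0908 to 0.238. Tfpi lies on chromosome 2, as does Wt1, with 125 measured genes between them. Pairs on chromosome 2 were called in 0.259% of cases (3 of 1160) and pairs on other chromosomes in 0.0234% (3 of 12811). The 3 called chromosome 2 pairs came from 2 of the 426 genes with a pair there. These were the integrin gene Itga4 and the sorting nexin gene Snx5, named after their values were seen. The 2 called Itga4 pairs differed between genotypes by -2.98 and -2.85, and the Snx5 pair by -0.53. The called Itga4 pairs share a probe set and are not independent. Whether chromosome 2 differed from the other chromosomes was not tested.

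The RefSeq table of GRCm38.p6 gives Tfpi 11 transcripts, 5 of them curated, and 2 start windows that lie 2585 bases apart. TFPI is known to occur in forms that differ in how they end and whether they are anchored to the membrane. Which form a probe set reads is not given. Whether the ratios came from such forms or from donor-strain sequence linked to Wt1 was not tested. Both windows are printed as the annotated starts of the member whose probe sets disagreed. Each has 250 bases before the start in lower case and the 50 bases from the start on in capitals, 5′ to 3′ on the minus strand (chr2:84476710-84477009 and chr2:84474125-84474424).
Tfpi upstream start: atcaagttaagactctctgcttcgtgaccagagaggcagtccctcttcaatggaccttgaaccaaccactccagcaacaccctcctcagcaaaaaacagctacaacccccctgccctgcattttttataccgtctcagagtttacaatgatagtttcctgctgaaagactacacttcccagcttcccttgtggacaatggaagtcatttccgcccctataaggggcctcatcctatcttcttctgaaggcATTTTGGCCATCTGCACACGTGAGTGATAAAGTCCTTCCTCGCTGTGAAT
Tfpi downstream start: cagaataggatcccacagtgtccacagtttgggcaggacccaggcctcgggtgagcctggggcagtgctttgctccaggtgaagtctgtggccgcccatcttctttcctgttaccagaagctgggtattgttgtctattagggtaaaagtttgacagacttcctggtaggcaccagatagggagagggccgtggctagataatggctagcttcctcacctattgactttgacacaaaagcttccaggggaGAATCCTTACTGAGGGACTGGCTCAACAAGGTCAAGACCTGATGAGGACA
Neither window holds GCGNGGGCG, a motif bound by zinc fingers of the WT1 and EGR proteins, on either strand, nor the looser GTGGGNG. Among 32851 RefSeq start windows, 5.55% hold the first and 31.6% the second. No match says only that these letters are not in these windows.

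For the endothelial anticoagulants Thbd and Procr, the mice of each genotype spread more widely than the genotypes differed. Thbd (1448529_at, chromosome 2) read 11.79, 11.31, 11.06, 11.66 and 11.55 in mutants 1 to 5, against 11.55, 12.06, 11.26, 11.76 and 11.83 in wild types 1 to 5. Wild type 2 was highest, mutant 3 lowest and the rest mixed, and the difference was -0.22 ± 0.16 (SE, limma adjusted p = 0.754, 95% interval -0.58 to 0.14). Leaving out mutant 3 or wild type 2 brought it to -0.11 or -0.13, and leaving out wild type 3 to -0.33. Procr (1420664_s_at, chromosome 2) read 9.22, 8.99, 8.99, 8.95 and 9.03 in mutants 1 to 5, against 9.09, 9.20, 9.33, 9.001 and 9.075 in wild types 1 to 5. Mutant 1 was second only to wild type 3, mutant 5 lay among the wild types and mutants 2, 3 and 4 below them. The difference of -0.10 ± 0.08 (SE, adjusted p = 0.754) has a 95% interval from -0.27 to 0.07, which in fold terms is 0.93 (0.83 to 1.05), and without wild type 3 the difference was -0.055.

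Vwf, the platelet-tethering protein of endothelium and known to be sparse in glomerular capillaries, gave a reading near the bottom of the scale. Its single probe set (1435386_at, chromosome 6) lay between 4.50 and 4.94 in mutants and between 4.49 and 4.77 in wild types, below the array's median of 6.36. The difference of 0.02 ± 0.09 (SE, limma adjusted p = 0.977) had either sign, depending on the setting, and so dim a signal compresses any difference. Other endothelial markers were high in both genotypes: the mean of 14 markers (Pecam1, Cdh5, Emcn and others) ran from 11.78 to 12.04 in mutants and from 11.91 to 12.12 in wild types. None of these 14 passed in limma, where 1.26% of all genes did, 12 of the 14 differences were negative, and their median was -0.13. With this mean, the endothelial score, in the fit, the differences were -0.30 for Thbd and -0.12 for Procr. Among the 14, Esam, named after its values were seen, had genotypes that did not overlap, where 3.67% of all genes did not. It differed by -0.21 ± 0.07 (SE, limma adjusted p = 0.327). Larger negative differences, also picked after the values were seen, were -0.50 for Cldn5, -0.25 for Robo4 and -0.22 for Ramp2. Their genotypes overlapped (limma, adjusted p = 0.202, 0.254 and 0.399). A second list of 8 arterial endothelial markers ran from 10.03 to 10.33 in mutants and from 9.95 to 10.32 in wild types, with 0 of 8 called. The mean of 5 platelet markers lay between 6.54 and 6.78 in mutants and between 6.70 and 6.93 in wild types, with all 5 differences negative and 0 called. At a share of 1.26%, 0 calls in lists this short say little.

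Plat, the activator of plasminogen released by endothelium, was read near the top of the scale in every mouse. Its main probe set (1415806_at, chromosome 8) read 14.00, 13.95, 13.95, 13.84 and 13.98 in mutants 1 to 5, against 13.99, 14.07, 13.96, 14.02 and 14.03 in wild types 1 to 5. Mutant 4 was lowest, wild type 2 highest and the rest mixed, and the difference was -0.07 ± 0.05 (SE, limma adjusted p = 0.762). Without mutant 4 it was -0.043. The 95% interval from -0.19 to 0.05 corresponds to 0.88 to 1.03 of the wild-type level. Only 39 of 45037 probe sets had a higher mean, and readings so close to the array maximum of 14.76 to 14.89 can understate a difference. A second, dimmer probe set, 1458553_at, read 7.38, 7.26, 7.28, 7.52 and 6.90 in mutants 1 to 5, against 7.63, 7.46, 7.22, 7.80 and 7.52 in wild types 1 to 5. Its difference was -0.26 ± 0.13 (SE, adjusted p = 0.574), mutant 5 being lowest, and without that mouse it was -0.17. The mean of both probe sets differed by -0.17 (adjusted p = 0.390 in the limma fit of gene means over 18193 genes). The ratio of the 2 Plat probe sets did not differ by genotype beyond error (0.19 ± 0.14 SE, adjusted p = 0.867).

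Plau, the gene of urokinase, was dim on both of its probe sets (chromosome 14). 1422138_at lay between 5.39 and 5.76 in mutants and between 5.42 and 5.78 in wild types, a difference of -0.04 ± 0.09 (SE, limma adjusted p = 0.931). 1422139_at read 5.30, 5.46, 4.60, 4.59 and 4.53 in mutants 1 to 5, against 4.57, 5.21, 4.59, 4.39 and 4.29 in wild types 1 to 5. Mutants 1 and 2 and wild type 2 sat above the other 7 mice on that probe set, the 2 genotypes being mixed on both levels, and the difference was 0.29 ± 0.22 (SE, adjusted p = 0.760). Without mutant 1 or mutant 2 it was 0.18 or 0.15, and without wild type 2 it was 0.44. All Plau means were below the median of the array.

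Plaur, the urokinase receptor, was read at a middling signal and 3 of the 5 mutants lay below every wild type. Its probe set (1452521_a_at, chromosome 7) read 8.61, 8.99, 8.83, 8.59 and 8.61 in mutants 1 to 5, against 8.89, 8.82, 8.98, 9.03 and 8.99 in wild types 1 to 5. Mutants 1, 4 and 5 lay below every wild type, and mutants 2 and 3 among them. The difference of -0.22 ± 0.09 (SE, 95% interval -0.41 to -0.03) had an unadjusted p of 0.0292 and an adjusted p of 0.448 in limma. Over all settings adjusted p ran from 0.197 (without mutant 2) to 0.836 (with the endothelial covariate, where the difference was -0.17). Leukocytes also carry this receptor, and the mean of 8 leukocyte markers ran from 6.21 to 6.92 in mutants and from 6.37 to 7.23 in wild types, with 5 differences positive and 3 negative and a median of 0.01. Of the 8, 1 was called, Csf1r, the receptor of a macrophage growth factor, at 8.48 in mutants and 9.47 in wild types, where 1.26% of all genes were called. Mutant 2, the highest mutant for Plaur, was also the highest mutant for that mean. The part of leukocytes in the Plaur values was not tested.

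Of the RefSeq start windows given for members, that of Plaur is the one that holds both motifs, and it is printed for that reason. It is chr7:24462233-24462532 of GRCm38.p6, plus strand, 5′ to 3′, with the matches in capitals: GCGNGGGCG at bases 142 to 150 and GTGGGNG at bases 203 to 209, counted from 1 at the 5′ end.
Plaur start: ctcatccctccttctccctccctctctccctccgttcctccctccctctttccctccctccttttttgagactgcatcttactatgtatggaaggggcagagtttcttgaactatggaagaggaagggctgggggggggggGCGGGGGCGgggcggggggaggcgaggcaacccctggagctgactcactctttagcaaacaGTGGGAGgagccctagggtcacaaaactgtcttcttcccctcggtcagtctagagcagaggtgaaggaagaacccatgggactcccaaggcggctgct
Windows were given for 4 of the 8 measured genes (Tfpi, Procr, F3 and Plaur). That of F3 holds GTGGGNG at 2 places, 1 on each strand, and that of Procr holds neither motif. A match is a run of letters and not a site shown to be bound.

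**Figure D3:**
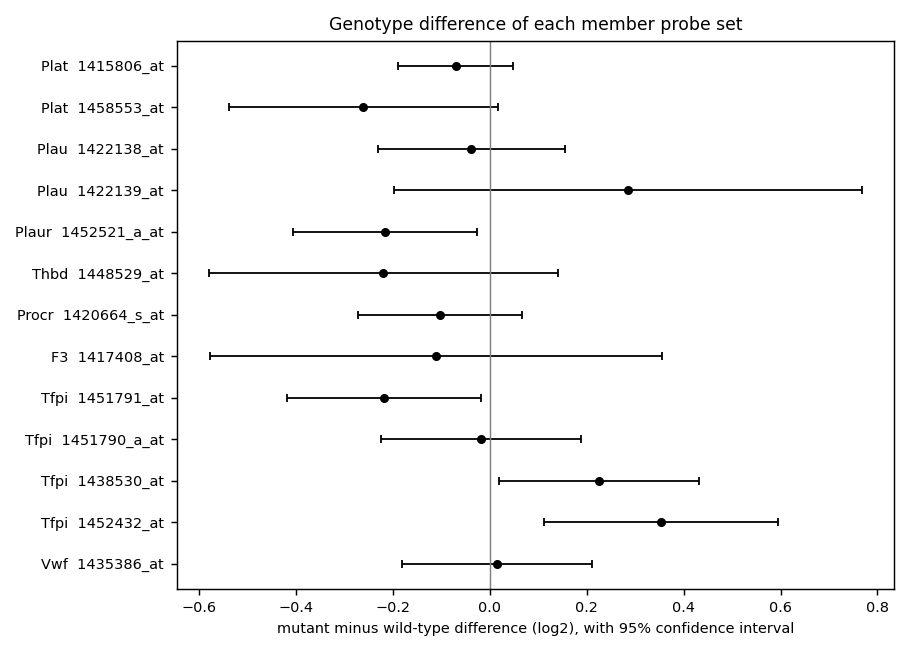
Mutant minus wild-type difference of each member probe set (horizontal axis, log2 units) with its 95% confidence interval from limma. Most intervals include 0; those of Plaur and of 3 Tfpi probe sets do not, 2 of those for Tfpi lying above 0 and 1 below, and none passed adjustment over all probe sets.

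Profiles most like those of members were found by the mean absolute difference over the 10 arrays after centring each gene on its own mean, among 11443 genes with a signal above the median of all probe sets. For Plaur, whose own values deviated by 0.14 on average, they were Abl2 (0.04), Btbd1 (0.06) and Pdia5 (0.06). For Tfpi by 1451791_at, which deviated by 0.15 on average, they were Nos2 (0.06), Ftx (0.07) and Nhlrc2 (0.07). None of these 6 genes was called between genotypes (limma, adjusted p from 0.0696 to 0.670). Since they were picked for profiles close to those of uncalled members, that is no separate result.

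Of 47 other genes of coagulation and fibrinolysis put on a list, 43 were measured, each read by its brightest probe set, and the other 4 were not analysed here. Of the 43, 0 passed in limma, where 1.26% of all genes did (0.566% higher and 0.698% lower in mutants). At an unadjusted p under 0.05 there were 4 of 43, 1 higher and 3 lower, where 11% of all genes lay. No gene of the list had separate genotypes, where 3.67% of all genes did. The median difference was 0.02, with 26 positive and 17 negative, and 23 of the 43 genes read below the median of the array. The 23 further probe sets of these genes gave 0 calls.

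Vkorc1, the enzyme that recycles vitamin K for clotting factors, had the smallest p of the list among the brightest probe sets. It ran from 10.96 to 11.26 in mutants and from 11.22 to 11.28 in wild types. The wild types lay close together and 4 mutants lay below all of them, but mutant 5 lay among them, and the difference was -0.19 ± 0.07 (SE, limma adjusted p = 0.333). F13a1, a subunit of the factor that cross-links fibrin, differed by -0.41 ± 0.16 (SE, adjusted p = 0.417) at a dim signal of 4.52 in mutants and 4.93 in wild types. F2, prothrombin, also dim, differed by -0.20 ± 0.08 (SE, adjusted p = 0.466). Annexin A5 (Anxa5), which covers the phospholipids that clotting needs, differed by 0.14 ± 0.06 (SE, adjusted p = 0.514).

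F2r, the thrombin receptor PAR1, was read near the top of the scale, from 13.46 to 13.59 in mutants and from 13.30 to 13.51 in wild types. It differed by 0.13 ± 0.06 (SE, limma adjusted p = 0.538), and its second probe set by 0.26 ± 0.08 (SE, adjusted p = 0.254). The unadjusted p of that second probe set was below that of Vkorc1 (limma, 0.00732 against 0.0138). The phosphodiesterase gene Enpp4 differed by 0.12 ± 0.07 (SE, adjusted p = 0.671), and by 0.079 without mutant 2. Some genes of liver-made proteins of the cascade, chosen after their values were seen, were dim. They were fibrinogen (Fga, Fgb and Fgg at 4.37, 4.56 and 4.42 over all mice), plasminogen (Plg, 4.63) and antithrombin (Serpinc1, 5.08). This does not hold for the whole list, where 23 of 43 genes read below the array's median of 6.36. Pros1 (11.85), Serpinf2 (7.78), Kng1 (7.15) and F13b (6.67) were among those above it. Likewise chosen, F13b, Kng1 and Tfpi2 spread most widely: F13b ran from 3.98 to 8.56 in mutants and from 4.26 to 7.44 in wild types. In all 3 genes the lowest mutant was mutant 5 and the lowest wild type was wild type 5, the mice with the lowest tubule scores.

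**Figure D4:**
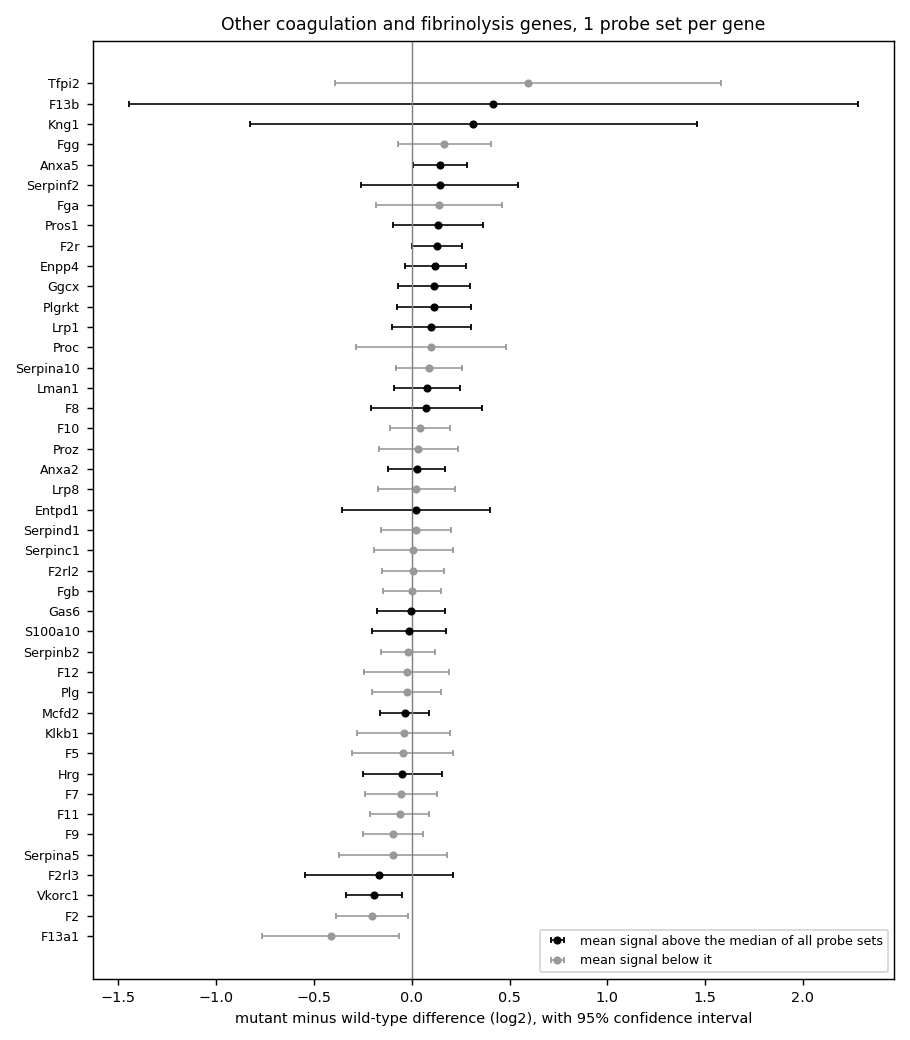
Mutant minus wild-type difference (horizontal axis, log2 units, with 95% confidence interval) of the 43 listed genes other than the members, ordered by size, with genes of a signal below the median of the array in grey. The differences centre near 0, the widest intervals belong to F13b, Kng1 and Tfpi2, and none passed adjustment over all probe sets.

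Thbd, Procr and Tfpi share chromosome 2 with Wt1, so the genes beside them were read in the order of the RefSeq annotation (GRCm38.p6, used for order only). On the whole chromosome 2.14% of 1399 genes were called in limma. Of the 10 measured genes nearest to Tfpi, 1 was called: Fam171b, a membrane protein gene 3 measured genes away, read 7.28 ± 0.25 in mutants and 8.16 ± 0.29 in wild types (SD, n = 5 each), a difference of -0.88 ± 0.15 (SE, limma adjusted p = 0.0205). The mice of the 2 genotypes did not overlap for it. None of the 10 neighbours of Thbd and none of the 10 of Procr was called, and 339 and 456 measured genes separate these 2 members from Wt1.

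**Figure D5:**
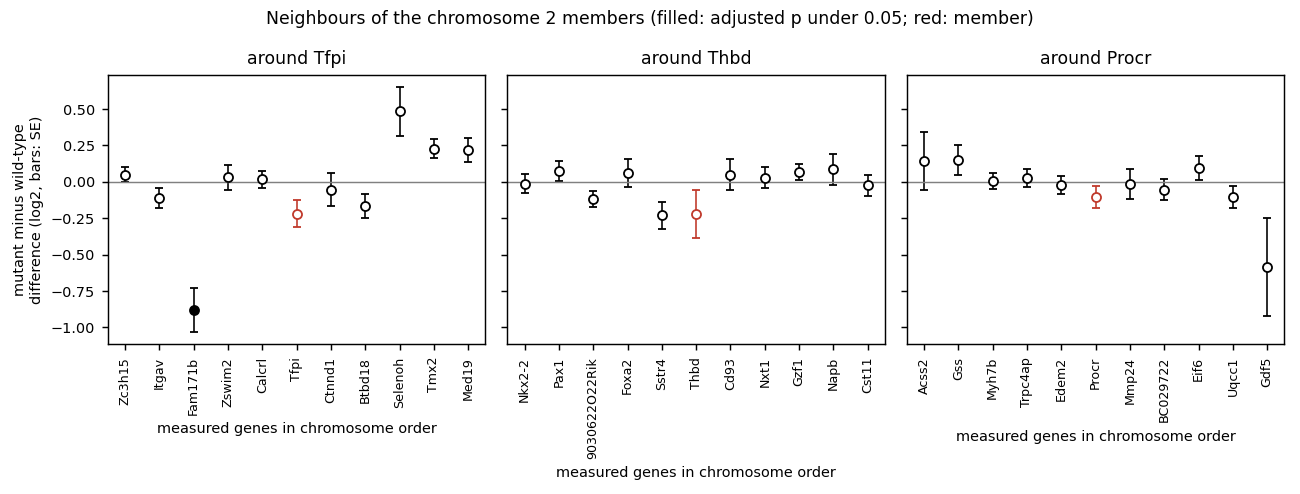
Mutant minus wild-type difference (vertical axis, log2 units, bars show the SE) of Tfpi, Thbd and Procr in red and of the 5 measured genes on each side in chromosome order. The filled point, Fam171b at -0.88, is the 1 gene shown that passed an adjusted p under 0.05.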

How the data were processed

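Total RNA of isolated glomeruli was labelled with biotin and hybridised to 1 expression array per mouse, per the labels. The deposited log2 values are RMA values (background correction, quantile normalization and summary per probe set), per the submitters' processing notes; the version is not given in the sources used here. RMA compresses differences of dim probe sets, and scanner files were not used here. All 10 columns were matched to mice by the labels (0 columns of other samples), and replicate numbers only name mice.

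After leaving out 64 control probe sets of 45101, limma (version 3.58.1, R version 4.3.3) was fitted over all 45037 with genotype alone. Two-sided p-values were adjusted by Benjamini-Hochberg, with 0.05 as the threshold. Fits of gene means, of pairs and of filtered probe sets were adjusted over their own genes, pairs or probe sets. Every p not called permutation comes from a limma fit of this kind. The platform annotation gave exactly 1 gene for 34945 probe sets, and a gene was read by its probe set of highest mean. Named besides the members were Wt1, the 6 smallest p of the pathway list, the 3 most alike genes of the 2 members with the smallest p, called neighbours on chromosome 2, up to 3 markers a cell type, and exceptions stated as such. Members and lists were chosen with earlier results of these data known. Fits were tested on simulated data. Figures used matplotlib (version 3.10.9).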

Additional observations from a re-analysis of the deposited data

Results flagged for a closer look

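F3 in mutant 5 (1417408_at) stood apart from its group. It read 8.47 while the other 4 mutants lay between 7.31 and 7.47, so the gap to the nearest mutant made up 0.857 of the whole range, beyond the critical value of 0.710 for 5 samples. This was the 1 case among the 28 groups examined (13 member probe sets and Wt1 in each genotype), where chance gives about 1 in 20.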

How the results depend on the processing

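The members gave 0 calls under each of the 10 scaling, filter, variance, weight, covariate, threshold and probe set alternatives tried for them and without any 1 mouse, and so did the pathway list under its own. The stricter threshold of 0.01 on the same fit could give only 0 for both. The filter on the mean left out Plau and Vwf. The filter on probe set names left out Plaur, Procr and 1451790_a_at of Tfpi. Over all probe sets, 147 (83 higher and 64 lower) were called instead of 384 (176 higher and 208 lower) with the endothelial score as a covariate and 144 (56 higher and 88 lower) at an adjusted p under 0.01. Without 1 mouse there were from 216 (without wild type 4) to 301, with 242 without wild type 1. Signs turned in differences near 0, between probe sets and in F3. 1451790_a_at of Tfpi was 0.036 with array weights and -0.087 to 0.035 without 1 mouse. Vwf was -0.027 with array weights, -0.075 with the endothelial score and -0.049 to 0.061 without 1 mouse. F3, at -0.11 in the main fit, was 0.0024 with the tubule score. 1422138_at of Plau ran from -0.089 to 0.0083 without 1 mouse, and gene means gave 0.12 for Plau and 0.086 for Tfpi; there the other probe sets enter. The count of Tfpi pairs called was 1 after quantile normalization and 1 with no filter on the mean, and 0 otherwise, these pair settings being chosen after seeing the data. No paired analysis was possible because the labels give no litter or shared number. The number of arrays and the low signal of Vwf and Plau limit precision.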
